A study of Homo sapiens with 42 samples.

Results

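The data described here are the 6 libraries in which DNA brought down by an antibody against TOP2A, topoisomerase 2A, was sequenced from KG-1 cells given mitoxantrone or no drug, out of 42 libraries in the study. KG-1 is an established line of human acute myelogenous leukaemia cells. The libraries were chosen by their labels, as the TOP2A pulldowns of the mitoxantrone experiment, and all 2523 named regions of the count table were taken. Cells of the first group had been kept for 1 h in 20 µM mitoxantrone, and cells of the second group for 1 h in vehicle. Each group held 3 libraries, named replicas 1, 2 and 3, and each mitoxantrone library was set against the no-drug library of its own replica. All 6 libraries shared the cell line, the antibody, a pulldown from sonicated chromatin without formaldehyde, and treatment of the eluted DNA with the enzyme TDP2 and the restriction enzyme BsmAI. The TOP2B pulldowns and the input DNA of the same 3 replicas were used only to show where TOP2A differed from them. There was 1 cell line, 1 dose and 1 exposure time, and the labels name no spike-in, so the amount of DNA pulled down was not measured.

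Topoisomerase 2A is the type II topoisomerase of dividing cells. It cuts both strands of a DNA duplex, passes another duplex through the gap and reseals the cut, and its activity is needed to part sister centromeres in mitosis. Mitoxantrone is an anthracenedione and a TOP2 poison: it intercalates at the cut and keeps the enzyme covalently bound to the 5′ ends it has made. In a pulldown without formaldehyde, DNA that comes down with the enzyme is read as DNA to which it was covalently held, and TDP2 removes the protein from those ends so that they can be sequenced.

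The regions are the satellite map of the human centromeres on the complete T2T-CHM13 genome. Alpha satellite is the main centromeric repeat. Its higher-order arrays are made of multi-monomer units repeated in tandem, the live arrays are those on which the kinetochore forms, and monomeric and divergent alpha satellite lie at the flanks of the arrays. Human satellites 2 and 3 are related pericentromeric arrays, and human satellite 1A is rich in A and T. Gamma satellite is GC-rich, beta satellite is found mostly on the acrocentric chromosomes and a few others, and the LSAU elements interspersed in some beta arrays are GC-rich as well. Ribosomal DNA arrays lie on the short arms of the acrocentric chromosomes. Transition regions are the stretches of non-satellite DNA between and beside these arrays. Because no genome sequence or region coordinates of that build were used here, no sequence is shown, and base composition was not measured.

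The libraries held 500686, 144348 and 1088980 reads in named regions with mitoxantrone in replicas 1, 2 and 3, against 430827, 43988 and 1257813 with no drug. Transition regions took 87.6% to 94.9% of these reads. Levels are given as RPM, the reads of a region scaled to 1000000 reads in named regions of its library. One read was therefore worth 2.00, 6.93 and 0.918 RPM with mitoxantrone, against 2.32, 22.7 and 0.795 with no drug, and values of replica 2 were the least precise. Replica 1 was sequenced with reads of 100 bp, and replicas 2 and 3 with reads of 50 bp. Each replica was also a sequencing order of its own. Of all reads, 59.7%, 46.2% and 21.5% were set aside for low mapping quality with mitoxantrone in replicas 1, 2 and 3, against 54.8%, 47.6% and 21.1% with no drug. Differences between replicas therefore cannot be told apart from run, read length or mapping. Every share given is of the reads in named regions, so a change common to all regions could not be seen.

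No single region passed the test of mitoxantrone against no drug. A paired fit in edgeR (quasi-likelihood, replica as a block, Benjamini-Hochberg adjustment, two-sided) called 0 of 1317 regions tested, which is 0%. Only 2 regions had an unadjusted p under 0.05, against 65.8 expected by chance alone, and the smallest adjusted p was 1.00. DESeq2 called 0 as well, with 10 regions under 0.05 unadjusted, and limma voom with quality weights called 0, with 12. The smallest unadjusted p, 0.0137, belonged to mon_20_2, a monomeric alpha region of chromosome 20 that is named because of that p. Sums over the regions of a class on a chromosome gave 0 calls of 182 (0%), with none under 0.05 unadjusted. The median biological coefficient of variation of the region fit was 0.506, so the counts of a region scattered about their fitted values by about that fraction of the mean. Replica 1 mattered most for the p-values. Without it, the fit of replicas 2 and 3 called 0 of 1197 regions, and the smallest adjusted p was 0.0690. In that fit 180 regions had an unadjusted p under 0.05, against 59.9 expected by chance alone. Regions share their libraries and are parts of 1 total, and whole classes moved together. Neither expected number is therefore a test of the count beside it.

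The 3 replicas nevertheless showed clear patterns, which ran in different directions. The 558 regions with a mean of at least 50 reads over the 6 libraries were described by the log2 ratio of their shares within each replica. A 95% interval for the counting error of each ratio (exact Clopper-Pearson) was also computed, and it compares a pair of libraries and not the conditions. In replica 1 this interval lay above no change in 172 regions (30.8%) and below it in 84 (15.1%). In replica 2 it lay above in 54 (9.68%) and below in 80 (14.3%). In replica 3 it lay above in 186 (33.3%) and below in 234 (41.9%). Changes of more than 2-fold were seen in 33 regions in replica 1, 148 in replica 2 and 139 in replica 3. Across the 558 regions the ratios of replicas 1 and 3 had a Pearson correlation of -0.71 and only 27.8% of regions had the same sign in both. Replicas 1 and 2 gave -0.35 with 33.7% of signs shared, and replicas 2 and 3 gave 0.31 with 65.4%. These correlations describe regions measured in the same libraries as parts of a fixed total, and replica 2 is scattered by its low counts.

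**Figure D1:**
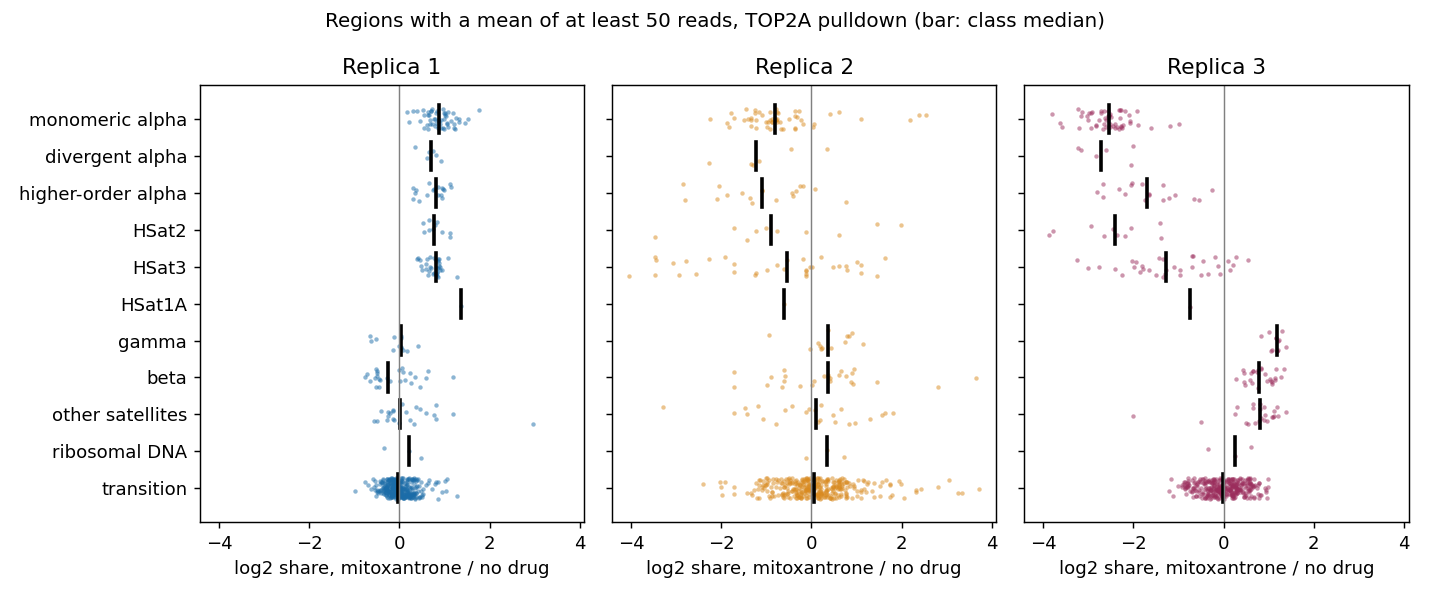
Each point is 1 region with a mean of at least 50 reads, outside chromosome Y; the horizontal axis is the log2 ratio of its share of region reads, mitoxantrone over no drug, in TOP2A pulldown, with 1 panel per replica, rows for the classes and a black bar at the class median. Alpha satellite, HSat2 and HSat3 lie to the right of 0 in replica 1 and mostly to the left in replica 3, where gamma and beta satellites lie to the right, and transition regions straddle 0 in all 3 replicas.

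Transition regions held most of the reads. Summed by chromosome, their ratios ran in nearly opposite orders in replica 1 and in the other replicas, although monomeric alpha satellite changed by more. Over the 23 chromosomes other than Y, the log2 ratios of replicas 1 and 3 had a Pearson correlation of -0.96, those of replicas 1 and 2 of -0.94, and those of replicas 2 and 3 of 0.93. The chromosomes share their libraries and their shares are parts of 1 total, so these values are a description. The chromosome with the lowest mean was chromosome 3, whose 8 transition regions held 2.33, 2.99 and 2.698% with mitoxantrone in replicas 1, 2 and 3, against 1.77, 4.46 and 4.71% with no drug. It was thus higher with mitoxantrone in replica 1 and lower in replicas 2 and 3, with log2 ratios of 0.39, -0.58 and -0.80. The chromosome with the highest mean was chromosome 22, whose 103 transition regions held 4.40, 3.49 and 2.77% with mitoxantrone in replicas 1, 2 and 3, against 5.18, 2.52 and 2.10% with no drug. Its log2 ratios were -0.23, 0.47 and 0.40, the opposite order. The counting intervals of these ratios were narrow: 0.35 to 0.43 and -0.82 to -0.78 for chromosome 3 in replicas 1 and 3, and -0.26 to -0.21 and 0.37 to 0.42 for chromosome 22. The means over replicas, -0.33 ± 0.64 (SD, n = 3) and 0.21 ± 0.39 (SD, n = 3), were smaller than their spread.

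By their means the remaining chromosomes lay between these. Chromosomes 4, 5, 6, 12, 21 and X were, like chromosome 3, higher in replica 1 and lower in replicas 2 and 3, with log2 ratios of 0.31, -0.51 and -0.66 on chromosome 6 and 0.22, -0.035 and -0.27 on chromosome X. Chromosomes 2, 7, 9, 10, 11, 13, 15, 16, 17, 18, 19 and 20 were, like chromosome 22, lower in replica 1 and higher in replicas 2 and 3. Chromosomes 8 and 14 had neither pattern, with log2 ratios of 0.084, -0.018 and 0.045 and of -0.023, -0.039 and 0.15. Chromosome 20 had the largest ratio of replica 3 in the TOP2A pulldown, 0.48, with -0.17 and 0.32 in replicas 1 and 2. These chromosomes were picked out after their values were seen. By share, chromosome 1 alone was higher in all 3, by 0.0061, 0.075 and 0.083. Scaling by TMM (trimmed mean of M values, which sets the bulk of regions to no change) moves every log2 ratio by -0.16 in replica 1, 0.22 in replica 2 and 0.094 in replica 3. It turns the sign of 3 transition sums in replica 1 (chromosomes 1, 8 and 12), 3 in replica 2 (chromosomes 8, 14 and X) and 0 in replica 3, so that chromosome 1 was at -0.16 in replica 1 and no transition sum was higher in all 3. It leaves the order of chromosomes within a replica as it was.

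**Figure D2:**
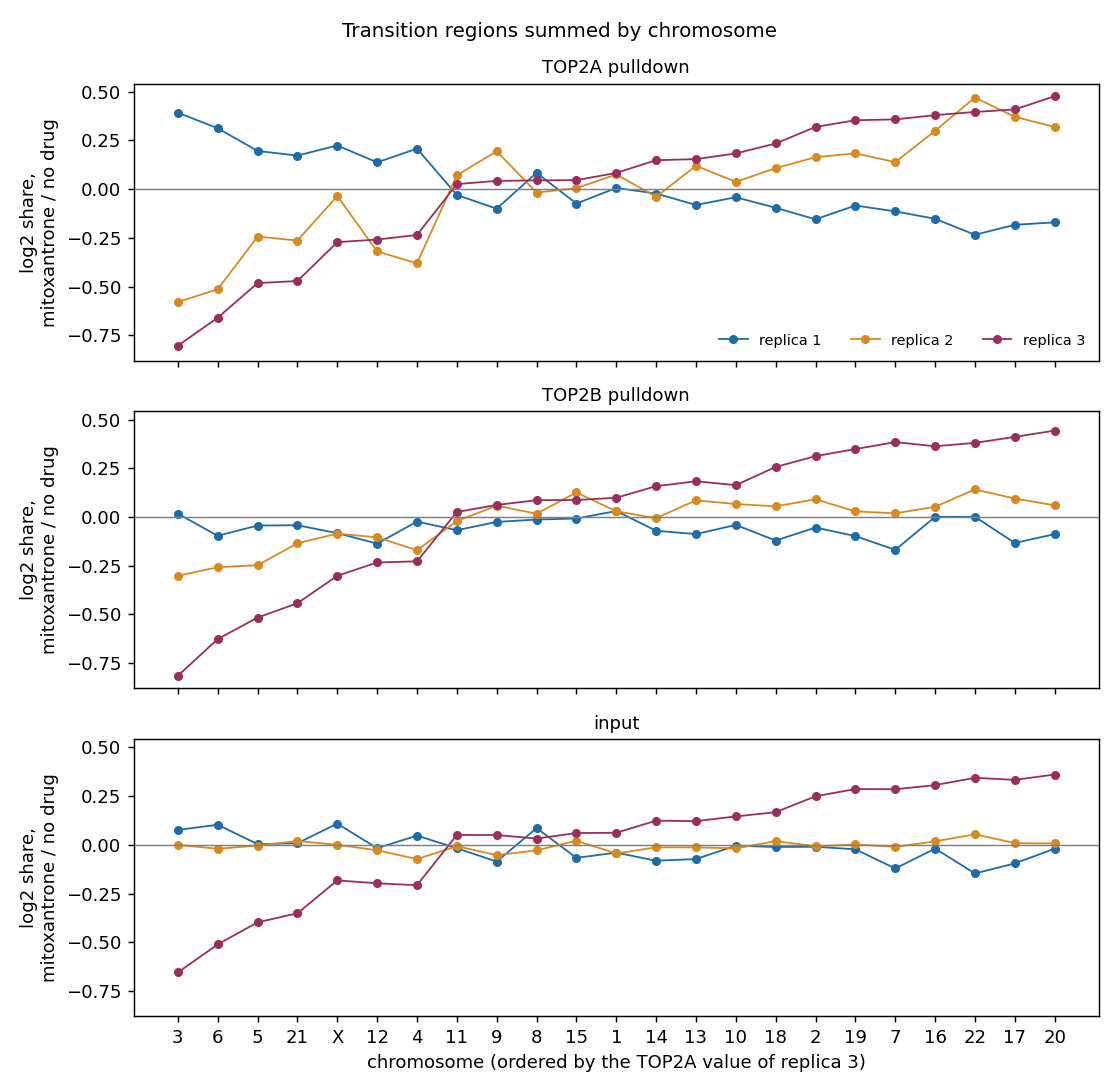
Log2 ratio of the share of region reads, mitoxantrone over no drug (vertical axis), of the transition regions summed over each chromosome other than Y (horizontal axis, ordered by the TOP2A value of replica 3), for TOP2A pulldown, TOP2B pulldown and input; lines join the chromosomes of 1 replica. In TOP2A pulldown the line of replica 1 falls where those of replicas 2 and 3 climb, and replica 3 runs alike in all 3 kinds of library.

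Within a chromosome the transition regions fell into outer regions on the chromosome arms and inner regions between satellite arrays. The 43 arm regions held most of the transition reads and barely moved as a group, with log2 ratios of -0.0047, -0.029 and 0.018. The arm region of the short arm of chromosome 8, ct_8_1, was the most read of all. It held 54305, 69575 and 66658 RPM with mitoxantrone in replicas 1, 2 and 3, against 53476, 63039.9 and 58023 with no drug, and its log2 ratios were 0.022, 0.14 and 0.20. The long-arm region of chromosome 17, ct_17_31, held 33903, 38927 and 34002 RPM with mitoxantrone in replicas 1, 2 and 3, against 38500.4, 30645 and 24794 with no drug. Its log2 ratios of -0.18, 0.34 and 0.46 followed the order of its chromosome. Neither passed the edgeR test, with log2 changes of 0.17 ± 0.20 (SE) and 0.26 ± 0.24 (SE) and adjusted p of 1.00 for both. The 328 inner regions of the acrocentric chromosomes gave -0.11, 0.22 and 0.16 together, and the 485 of the other chromosomes gave -0.083, 0.13 and 0.15.

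Monomeric alpha satellite, the older form that flanks the arrays, took 2.41, 1.40 and 0.730% with mitoxantrone in replicas 1, 2 and 3, against 1.33, 2.66 and 3.92% with no drug. All 54 of its regions with at least 50 reads were higher with mitoxantrone in replica 1 and all 54 were lower in replica 3, while 46 were lower in replica 2. The counting interval excluded no change in 88.9%, 31.5% and 100% of them in replicas 1, 2 and 3, against 45.9%, 24.0% and 75.3% of all 558 regions. The log2 ratios of single regions ran from 0.17 to 1.78 in replica 1 and from -3.82 to -0.999 in replica 3. The most read of them, mon_8_1, held 2167, 2099 and 989.9 RPM with mitoxantrone in replicas 1, 2 and 3, against 1098, 3637 and 5246 with no drug. Without drug its level was thus lowest in replica 1 and highest in replica 3, and with mitoxantrone the 3 levels lay closer together. Next came mon_10_1, which held 1438, 811 and 468 RPM with mitoxantrone in replicas 1, 2 and 3, against 710.3, 2296 and 2257 with no drug. Its log2 ratios were 1.02, -1.50 and -2.27, and the edgeR log2 change was -0.90 ± 0.55 (SE) with an adjusted p of 1.00.

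Chromosomes differed least in monomeric alpha satellite in replica 1. There the 19 chromosome sums with at least 50 reads spanned log2 ratios of 0.49 to 1.06, all above 0. In replica 2, with few reads, they spanned -1.41 on chromosome 20 to 2.19 on chromosome 18, and 17 of 19 lay below 0. In replica 3 they spanned -3.59 on chromosome 18 to -1.77 on chromosome 6, all below 0. Chromosome 20 had the lowest mean, with 0.78, -1.41 and -2.81 in the 3 replicas. Chromosome 9 had the highest, with 0.53, 1.25 and -2.51, and its mean over replicas was -0.24 ± 2.00 (SD, n = 3). Divergent alpha satellite, whose higher-order structure is decayed, behaved alike. All 6 regions with at least 50 reads were higher in replica 1 and lower in replica 3, where their log2 ratios lay between -3.22 and -2.02. In dhor_3_2 the shares were 479, 187 and 71.6 RPM with mitoxantrone in replicas 1, 2 and 3, against 253, 250.1 and 672 with no drug, log2 ratios of 0.92, -0.46 and -3.22. In dhor_6_1 they were 479, 270.2 and 116 RPM with mitoxantrone in replicas 1, 2 and 3, against 283, 659 and 828 with no drug. By chromosome the lowest mean was that of chromosome 6, -1.22 ± 1.83 (SD, n = 3), and the highest that of chromosome 22, -0.38 ± 1.87 (SD, n = 3).

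Higher-order alpha arrays followed the same directions, and the arrays of different chromosomes differed in size of change. Of the 41 live arrays named in the table, 16 had a mean of at least 50 reads. All 16 were higher with mitoxantrone in replica 1, 14 were lower in replica 2 and all 16 were lower in replica 3. Their log2 ratios spanned 0.30 to 1.15 in replica 1, -2.85 to 0.76 in replica 2, where reads were few, and -2.82 to -0.26 in replica 3. The live arrays of chromosomes 17, 16 and 6 moved least in replica 3, with log2 ratios of -0.26, -0.55 and -0.66. In hor_17_2 the shares were 381, 132 and 278 RPM with mitoxantrone in replicas 1, 2 and 3, against 283, 68.2 and 332 with no drug, so that replicas 1 and 2 were higher and replica 3 was lower. In hor_16_4 they were 429, 90.1 and 249 RPM with mitoxantrone in replicas 1, 2 and 3, against 329.6, 114 and 364 with no drug, and in hor_6_1 they were 272, 104 and 114 RPM with mitoxantrone in replicas 1, 2 and 3, against 221, 90.9 and 179.7 with no drug. The means over replicas were 0.31 ± 0.52 (SD, n = 3) for chromosome 17, -0.20 ± 0.50 (SD, n = 3) for chromosome 16 and -0.096 ± 0.50 (SD, n = 3) for chromosome 6. With 5 reads added in place of 0.5, the replica 2 ratios of hor_17_2 and hor_6_1 turned to -0.13 and -0.56. The means then became 0.010, -0.35 and -0.31 for chromosomes 17, 16 and 6.

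The live arrays of chromosomes 9, 12 and 10 moved most in replica 3. In hor_9_1 the shares were 373, 111 and 29.4 RPM with mitoxantrone in replicas 1, 2 and 3, against 234, 409 and 209.9 with no drug, with a replica 3 log2 ratio of -2.82 and a counting interval of -3.41 to -2.30. In hor_12_2 they were 139.8, 159 and 45.0 RPM with mitoxantrone in replicas 1, 2 and 3, against 72.0, 409 and 291 with no drug, and in hor_10_1 316, 48.5 and 35.8 RPM with mitoxantrone in replicas 1, 2 and 3, against 186, 364 and 229.8 with no drug. The counting intervals in replica 3 of these 3 arrays did not meet those of the arrays of chromosomes 17, 16 and 6, where that of hor_17_2 was -0.47 to -0.039. The arrays at both ends were picked by these same replica 3 ratios, so the gap is a description and not a test. The array of chromosome 10 had the lowest edgeR change of the live arrays, -1.51 ± 0.74 (SE) with an unadjusted p of 0.0713 and an adjusted p of 1.00. The spread among arrays in replica 3 was not particular to the pulldown: hor_17_2 had -0.29 in input and -0.66 in TOP2B pulldown, and hor_9_1 had -2.28 and -3.27. Over the 21 chromosomes with at least 50 reads in higher-order arrays, the replica 3 ratios of TOP2A had a Pearson correlation of 0.83 with input and 0.94 with TOP2B.

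The other live arrays fell between these ends. The most read, hor_18_5 on chromosome 18, held 999, 139 and 88.2 RPM with mitoxantrone in replicas 1, 2 and 3, against 594, 341 and 368 with no drug, and its log2 ratios were 0.75, -1.31 and -2.06. The arrays of chromosomes 1 and 19, which share 1 higher-order repeat family by their names in the table, gave 1.15, -1.11 and -1.34 for hor_1_5 and 0.85, -1.10 and -2.18 for hor_19_13. Their counting intervals in replica 3 met, at -1.82 to -0.90 and -2.62 to -1.79. The array of the X chromosome, hor_X_1, gave 0.95, -0.43 and -1.21. The array of chromosome 11, hor_11_3, gave 0.35, -2.05 and -1.34, that of chromosome 20, hor_20_2, 0.31, -0.78 and -1.09, and that of chromosome 22, hor_22_9, 0.93, -0.18 and -2.03. Those of chromosomes 2, 7 and 8 gave 0.86, -1.53 and -2.32 (hor_2_4), 0.98, -2.10 and -1.66 (hor_7_2) and 1.13, -0.26 and -1.82 (hor_8_2). Summed over all arrays of a chromosome, chromosome 15 had the lowest mean, -1.69 ± 1.70 (SD, n = 3), and chromosome 17 the highest, 0.097 ± 0.39 (SD, n = 3). Live arrays together gave 0.70, -0.98 and -1.53 and the 79 arrays not marked live gave 0.75, -1.27 and -1.27, with means of -0.60 ± 1.16 (SD, n = 3) and -0.60 ± 1.17 (SD, n = 3).

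Human satellite 2, one of the large pericentromeric satellites, moved as alpha satellite did. All 10 regions with at least 50 reads were higher with mitoxantrone in replica 1 and lower in replica 3, and 7 were lower in replica 2. The most read, hsat2_1_6 on chromosome 1, held 2103, 443 and 500.5 RPM with mitoxantrone in replicas 1, 2 and 3, against 1246, 887 and 1325 with no drug. In hsat2_16_15 on chromosome 16 the shares were 2395, 236 and 186 RPM with mitoxantrone in replicas 1, 2 and 3, against 1381, 546 and 1028 with no drug. The replica 3 log2 ratio was -1.40 on chromosome 1 (counting interval -1.55 to -1.26) and -2.46 on chromosome 16 (counting interval -2.68 to -2.25). By chromosome the lowest mean was that of chromosome 10, -1.61 ± 1.86 (SD, n = 3), and the highest that of chromosome 17, 0.24 ± 2.52 (SD, n = 3), which rested on a replica 2 ratio of 2.37 from 8 reads with mitoxantrone and 0 with no drug.

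Human satellite 3 was divided. All 45 regions with at least 50 reads were higher with mitoxantrone in replica 1, but 7 were higher and 38 lower in replica 3. The 7 were among the 34 regions of the A subfamilies, whose replica 3 ratios had a median of -0.75, against -1.997 for the 11 regions with a B subfamily in their name. The difference was not particular to the pulldown. Summed over all their regions, A and B gave -0.79 and -1.74 in replica 3 of TOP2A pulldown. They gave -1.09 and -2.46 in TOP2B pulldown and -0.75 and -1.63 in input of that replica. The 65 regions named A4 alone summed to log2 ratios of 0.64, -0.82 and 0.20, and the 18 named B3 alone to 0.92, -0.41 and -2.39. In replica 3 of TOP2B pulldown and input, A4 was below 0, at -0.53 and -0.24, and B3 was at -3.08 and -2.08. On chromosome 9 hsat3_9_3, of subfamily B5, held 3609, 831 and 419 RPM with mitoxantrone in replicas 1, 2 and 3, against 2003, 1409 and 1057 with no drug. On chromosome 20 hsat3_20_3, of mixed subfamilies, held 837, 388 and 199 RPM with mitoxantrone in replicas 1, 2 and 3, against 464, 432 and 772 with no drug. By chromosome the lowest mean was that of chromosome 17, -0.87 ± 1.43 (SD, n = 3), and the highest that of chromosome 3, 0.53 ± 0.66 (SD, n = 3), which is 1 region with 3 and 0 reads in replica 2 with mitoxantrone and no drug.

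Human satellite 1A rested on few reads. Its most read region, hsat1A_13_1 on chromosome 13, held 531, 804 and 29.4 RPM with mitoxantrone in replicas 1, 2 and 3, against 204, 1228 and 49.3 with no drug, log2 ratios of 1.37, -0.62 and -0.74. Its no-drug level differed between replicas by more than the drug ratio within any of them. In hsat1A_15_1 on chromosome 15 the shares were 244, 222 and 7.35 RPM with mitoxantrone in replicas 1, 2 and 3, against 83.6, 386 and 33.4 with no drug. Of the 2 chromosomes with at least 50 reads, chromosome 4 had the lower mean, -0.83 ± 2.22 (SD, n = 3), and chromosome 13 the higher, -0.030 ± 1.37 (SD, n = 3). Human satellite 1B had no region with at least 50 reads. Its most read regions outside chromosome Y, hsat1B_13_2 and hsat1B_13_1, had 6, 20 and 21 reads with mitoxantrone in replicas 1, 2 and 3, against 1, 16 and 16 with no drug, and 8, 17 and 18 reads with mitoxantrone in replicas 1, 2 and 3, against 4, 10 and 8 with no drug.

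Gamma satellite moved the other way. All 13 regions with at least 50 reads were higher with mitoxantrone in replica 3, by log2 ratios of 0.84 to 1.38, and 11 were higher in replica 2. In replica 1, 7 were higher and 6 lower. The large gamma array of chromosome 8 gave the most reads. Its most read region, gsat_8_7, held 3589, 4884 and 1659 RPM with mitoxantrone in replicas 1, 2 and 3, against 3375, 4160.2 and 706 with no drug, log2 ratios of 0.089, 0.23 and 1.23. Its neighbour by name, gsat_8_6, held 1985, 2487 and 999 RPM with mitoxantrone in replicas 1, 2 and 3, against 1927, 2546 and 432 with no drug. By family, regions named GSAT summed to 0.080, 0.19 and 1.20, those named GSATX to -0.25, 0.58 and 1.08, and those named GSATII or a mixture to -0.47, 0.85 and 1.18. TMM scaling turns the replica 1 value of GSAT to -0.084 and no other family's sign. The chromosome with the highest mean was the X chromosome, 0.64 ± 0.53 (SD, n = 3), and the lowest was chromosome 14, 0.24 ± 0.86 (SD, n = 3).

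**Figure D3:**
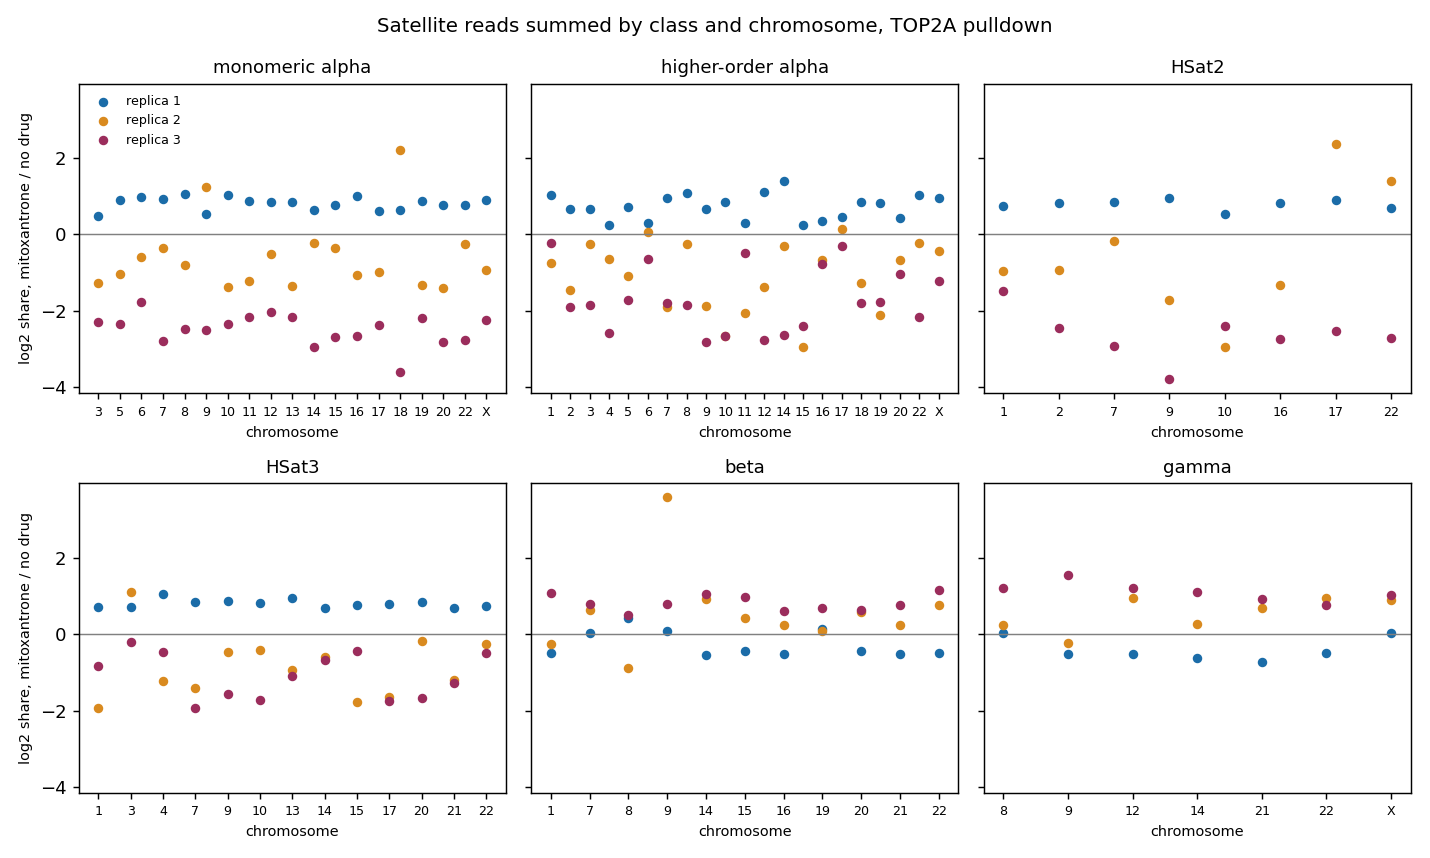
Log2 ratio of the share of region reads, mitoxantrone over no drug in TOP2A pulldown (vertical axis), of 6 satellite classes summed over each chromosome other than Y with a mean of at least 50 reads (horizontal axis); points are replicas. Monomeric and higher-order alpha satellite, HSat2 and HSat3 lie above 0 in replica 1 and below it in replica 3, and beta and gamma satellites lie above 0 in replica 3 on every chromosome shown.

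Beta satellite was split by the LSAU element. The 12 LSAU composites with at least 50 reads were all lower with mitoxantrone in replica 1 and all higher in replica 3, and 11 were higher in replica 2. Of the 19 other beta regions, 15 were higher in replica 1, 8 in replica 2 and 15 in replica 3. The most read composite, bsat_1_1 on chromosome 1, held 2976, 942 and 1623 RPM with mitoxantrone in replicas 1, 2 and 3, against 4192, 1114 and 767 with no drug. In bsat_22_6 on chromosome 22 the shares were 2778, 1011 and 1638 RPM with mitoxantrone in replicas 1, 2 and 3, against 3976, 637 and 747 with no drug. Their log2 ratios in replicas 1 and 3 were close, -0.49 and 1.08 on chromosome 1 and -0.52 and 1.13 on chromosome 22. By class sum, LSAU composites gave -0.50, 0.52 and 1.07 and the other beta regions 0.16, -0.15 and 0.55, and TMM scaling turns the sign of the second in replicas 1 and 2. Chromosome 9 had the highest mean, 1.48 ± 1.84 (SD, n = 3), which rested on a replica 2 ratio of 3.57 from 19 reads with mitoxantrone and 0 with no drug. Chromosome 8 had the lowest, 0.0020. The split was also found in input, where LSAU composites gave -0.50, 0.046 and 0.65 and the other beta regions 0.26, -0.33 and 0.38. These signs were those of TOP2A pulldown in every replica. In TOP2B pulldown the composites gave 0.20, 0.30 and 0.61 and the other beta regions 0.010, -0.15 and 0.40.

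Ribosomal DNA, the tandem genes of ribosomal RNA, was the only class whose sum was higher with mitoxantrone in all 3 replicas. It held 0.298, 0.128 and 0.0261% with mitoxantrone in replicas 1, 2 and 3, against 0.255, 0.105 and 0.0214% with no drug. The mean log2 ratio was 0.27 ± 0.032 (SD, n = 3), and the exact two-sided permutation of signs gave p = 0.25, the smallest that 3 pairs allow. The counting intervals, 0.12 to 0.34, -0.18 to 0.79 and 0.041 to 0.53, were wider than that SD, and that of replica 2 included no change. After TMM scaling the ratios were 0.065, 0.50 and 0.38, still above 0, with a mean of 0.31 ± 0.22 (SD, n = 3) and thus a wider spread. Most of its reads lay in the array of chromosome 21. In rDNA_21_1 the shares were 1789.5, 734 and 157 RPM with mitoxantrone in replicas 1, 2 and 3, against 1537, 568 and 103 with no drug, a mean log2 ratio of 0.39 ± 0.19 (SD, n = 3). The counting intervals were 0.073 to 0.37, -0.27 to 1.06 and 0.27 to 0.94. The edgeR log2 change was 0.44 ± 0.33 (SE) with an adjusted p of 1.00. The other 4 arrays had mixed signs: log2 ratios were 0.47, 0.72 and -0.35 for rDNA_13_1, 0.17, -0.82 and -0.18 for rDNA_14_1, -0.34, -0.13 and 0.25 for rDNA_15_1 and 0.24, -0.36 and 0.043 for rDNA_22_1. In rDNA_13_1 there were 363, 40 and 40 reads with mitoxantrone in replicas 1, 2 and 3, against 225, 7 and 59 with no drug, so replica 3 opposed the other two. Near-identical copies of the ribosomal genes on these chromosomes can exchange reads, so the split between arrays is uncertain. In TOP2B pulldown rDNA_21_1 gave 0.43, 0.19 and 0.49, and in input -0.48, 0.38 and 0.58. The sum of the class gave 0.21, 0.015 and 0.58 in TOP2B pulldown, also above 0 in all 3 replicas, and -0.36, 0.39 and 0.45 in input.

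Among the smaller satellites, the ACRO repeats, which are found on acrocentric chromosomes and a few others, were higher with mitoxantrone in all 3 replicas as a sum, 0.25, 0.55 and 0.72, and 3 of 4 ACRO regions with at least 50 reads were too. SST repeats gave -0.072, 0.22 and 0.86, with all 14 such regions higher in replica 3. The most read region of the class, the SST composite censat_14_39, held 891, 208 and 75.3 RPM with mitoxantrone in replicas 1, 2 and 3, against 1035, 136 and 43.7 with no drug. The CER region censat_14_58 held 95.9, 41.6 and 309 RPM with mitoxantrone in replicas 1, 2 and 3, against 55.7, 114 and 159 with no drug. HSat5 gave -0.13, 1.00 and 1.16. By chromosome, chromosome 4 had the highest mean of this class, 0.91 ± 0.78 (SD, n = 3). Its replica 2 ratio was 1.75, where its region censat_4_6 had 25 reads with mitoxantrone and 2 with no drug. Chromosome 2 had the lowest, -0.25 ± 0.25 (SD, n = 3), and it was the 1 chromosome sum of any class whose share was lower in all 3 replicas. TMM scaling turned it to 0.13 in replica 2, and then transition regions of chromosome 12 were the 1 sum outside chromosome Y that was lower in all 3, with -0.026, -0.10 and -0.17.

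A minority of regions moved the same way in all 3 replicas. Of the 558 regions, 42 (7.53%) were higher with mitoxantrone in all 3 and 33 (5.91%) were lower. They were picked out by their signs alone, as a description, and neither share was tested against chance. The 42 were 24 of 344 transition regions, 6 of 33 other satellites, 5 of 31 beta, 5 of 13 gamma, 1 of 45 HSat3 and 1 of 3 ribosomal DNA regions, and none of 54 monomeric, 18 higher-order, 6 divergent alpha or 10 HSat2 regions. The 33 were 32 transition regions and 1 other satellite. After TMM scaling 23 were higher in all 3, of which 15 were among the 42, and 29 were lower, of which 17 were among the 33. The 6 levels of a region were fully apart, every mitoxantrone library above or below every no-drug library, in 3 regions that were higher (0.538%) and 3 that were lower (0.538%). They are named because their count is small: ct_7_49, ct_8_6 and ct_19_27 were higher, and ct_13_42, ct_14_70 and ct_18_9 were lower, all of them transition regions. The largest by reads, ct_7_49, held 3144, 3450.0 and 3370.1 RPM with mitoxantrone in replicas 1, 2 and 3, against 3055, 2728 and 2759 with no drug, log2 ratios of 0.041, 0.33 and 0.29. In ct_13_42 the shares were 356, 291 and 282 RPM with mitoxantrone in replicas 1, 2 and 3, against 439, 455 and 359 with no drug, log2 ratios of -0.30, -0.66 and -0.35. Of the 140 sums by class and chromosome with at least 50 reads, 11 (7.86%) were higher in all 3 replicas and 1 (0.714%) was lower. The 11 were beta satellite of chromosomes 7, 9 and 19, other satellites of chromosomes 4, 8, 15 and 21, gamma satellite of chromosomes 8 and X, ribosomal DNA of chromosome 21 and transition regions of chromosome 1. After TMM scaling 9 of the 11 were below 0 in replica 1, and other satellites of chromosome 4 and ribosomal DNA of chromosome 21 were the 2 sums higher in all 3.

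The 8 regions with the highest mean among those higher in all 3 replicas came from 5 classes. The ACRO region censat_4_6 held 391, 173 and 128 RPM with mitoxantrone in replicas 1, 2 and 3, against 311, 45.5 and 73.1 with no drug. Its log2 ratios were 0.33, 1.64 and 0.80, and the edgeR change was 0.86 ± 0.51 (SE) with an adjusted p of 1.00. The HSat5 region censat_8_2 held 216, 152 and 118 RPM with mitoxantrone in replicas 1, 2 and 3, against 167, 68.2 and 54.1 with no drug. Gamma satellite gave 3 of the 8, of which gsat_8_13 had the most reads and held 1875, 2605 and 876 RPM with mitoxantrone in replicas 1, 2 and 3, against 1676, 1932 and 385 with no drug. It had the smallest unadjusted edgeR p of the 8, 0.0824, with a log2 change of 0.64 ± 0.33 (SE). In gsat_X_1 the shares were 771, 270.2 and 127 RPM with mitoxantrone in replicas 1, 2 and 3, against 754, 136 and 62.8 with no drug, and in gsat_8_3 369, 339 and 237 RPM with mitoxantrone in replicas 1, 2 and 3, against 357, 182 and 107 with no drug. Under TMM scaling these 3 gamma regions were below 0 in replica 1 and above it in replicas 2 and 3.

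The remaining 3 of the 8 had 0 reads in the no-drug library of replica 2, so their replica 2 ratio depends on the 0.5 reads added. In ct_13_31 there were 31, 6 and 129 reads with mitoxantrone in replicas 1, 2 and 3, against 19, 0 and 136 with no drug. In bsat_19_33 there were 32, 4 and 149 reads with mitoxantrone in replicas 1, 2 and 3, against 23, 0 and 128 with no drug, and in hsat3_14_21 92, 3 and 100 reads with mitoxantrone in replicas 1, 2 and 3, against 52, 0 and 95 with no drug. With 5 reads added in place of 0.5, the mean log2 ratio became -0.025 for ct_13_31, -0.087 for bsat_19_33 and -0.069 for hsat3_14_21, below 0 in all 3. Replica 2 also rested on few reads with mitoxantrone and no drug in censat_4_6 (25 and 2) and censat_8_2 (22 and 3). Their replica 2 ratios with 5 reads added were 0.39 and 0.041, and their means 0.49 and 0.48. The means of gsat_8_13, gsat_8_3 and gsat_X_1 were then 0.57, 0.50 and 0.43.

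Of the 8 regions with the lowest mean among those lower in all 3 replicas, 7 were transition regions and 1 was a CER satellite. In ct_20_21 on chromosome 20 the shares were 605, 374 and 248 RPM with mitoxantrone in replicas 1, 2 and 3, against 694, 796 and 430.1 with no drug. Its log2 ratios were -0.20, -1.10 and -0.79, opposite in replicas 2 and 3 to the sum of transition regions on that chromosome, and the edgeR change was -0.64 ± 0.34 (SE) with an unadjusted p of 0.0973 and an adjusted p of 1.00. The CER region censat_13_19 held 192, 69.3 and 114 RPM with mitoxantrone in replicas 1, 2 and 3, against 229.8, 114 and 162 with no drug, log2 ratios of -0.26, -0.78 and -0.51. Chromosome 14 gave 3 of the 8. In ct_14_70 the shares were 108, 118 and 139 RPM with mitoxantrone in replicas 1, 2 and 3, against 156, 227 and 159 with no drug, with no overlap between the groups. In ct_14_43 they were 119.8, 41.6 and 163 RPM with mitoxantrone in replicas 1, 2 and 3, against 158, 227 and 169 with no drug, where replica 2 rested on 6 and 10 reads. In ct_14_3 the log2 ratios were -0.47, -1.23 and -0.13, where replica 2 rested on 3 and 2 reads. The last 3, ct_3_3, ct_22_77 and ct_18_9, had log2 ratios of -0.30, -1.10 and -0.26, of -0.13, -1.16 and -0.052 and of -0.011, -1.02 and -0.29. Replica 2 also rested on few reads in ct_3_3 (11 and 7), ct_22_77 (12 and 8), censat_13_19 (10 and 5) and ct_14_70 (17 and 10). The counting interval of replica 2 included no change in each of these and in ct_14_3. It excluded no change in ct_14_43, ct_20_21 and ct_18_9. Under TMM scaling ct_14_43 and ct_22_77 were above 0 in replica 3, at 0.035 and 0.041, and the other 6 were lower in all 3 replicas.

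**Figure D4:**
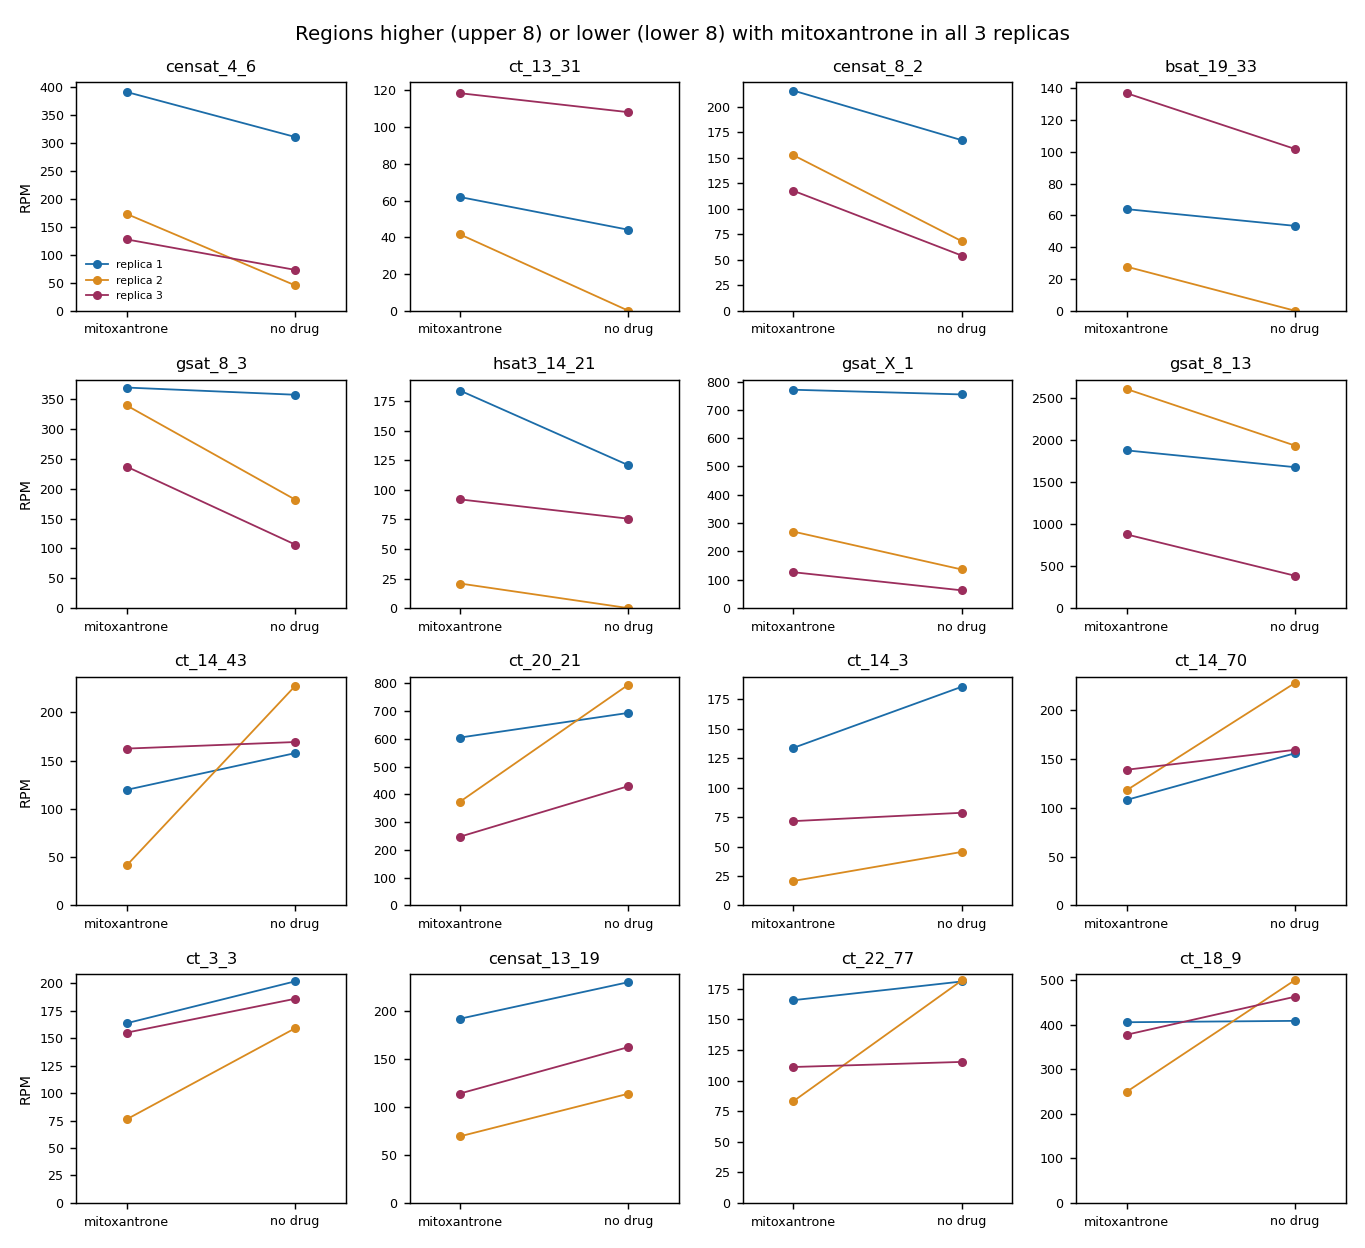
RPM, reads scaled to 1000000 region reads (vertical axes, from 0) in the mitoxantrone library (left) and the no-drug library (right) of each replica in TOP2A pulldown, for the 8 regions with the highest and the 8 with the lowest mean log2 ratio among regions that moved the same way in all 3 replicas. Lines fall to the right in the upper 8 panels and climb in the lower 8, and the levels of the replicas differ by more than the drug ratio in many of them.

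Mitoxantrone ratios in TOP2A pulldown were then set beside those in TOP2B pulldown and in input of the same replicas, which asks whether a change is found only where TOP2A was pulled down. None was shown to be. The edgeR interaction of treatment and library kind called 0 of 1481 regions for TOP2A minus input (0%) and 0 of 1398 for TOP2A minus TOP2B (0%), with none under an unadjusted p of 0.05 in either. In replica 3 the ratios of the 558 regions had a Pearson correlation of 0.97 with those of input and 0.96 with those of TOP2B, and 91.6% and 91.0% of signs were shared. In replica 1 the correlations were 0.59 and 0.55, and in replica 2 they were -0.025 and 0.12. Libraries of different kinds share no reads here, but they share the cells, run and read length of their replica.

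Summed over transition regions by chromosome, the kinds ran alike in replica 3 as well, but in replicas 1 and 2 the correlations differed from those over single regions. By chromosome, the ratios of TOP2A and input had correlations of 0.78, 0.40 and 1.00 in replicas 1, 2 and 3, and those of TOP2A and TOP2B had 0.15, 0.90 and 1.00. Chromosome 3, with 0.39, -0.58 and -0.80 in TOP2A, had 0.017, -0.30 and -0.81 in TOP2B and 0.076, -0.00072 and -0.65 in input. Chromosome 22, with -0.23, 0.47 and 0.40 in TOP2A, had 0.00094, 0.14 and 0.38 in TOP2B and -0.15, 0.054 and 0.34 in input. The lowered share of chromosome 3 in replica 3 was thus nearly as large in input, whereas its raised share in replica 1 was 0.39 in TOP2A and 0.076 in input. The differences over replicas between TOP2A and input were -0.14 ± 0.45 for chromosome 3 and 0.13 ± 0.26 for chromosome 22 (SD, n = 3 each).

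**Figure D5:**
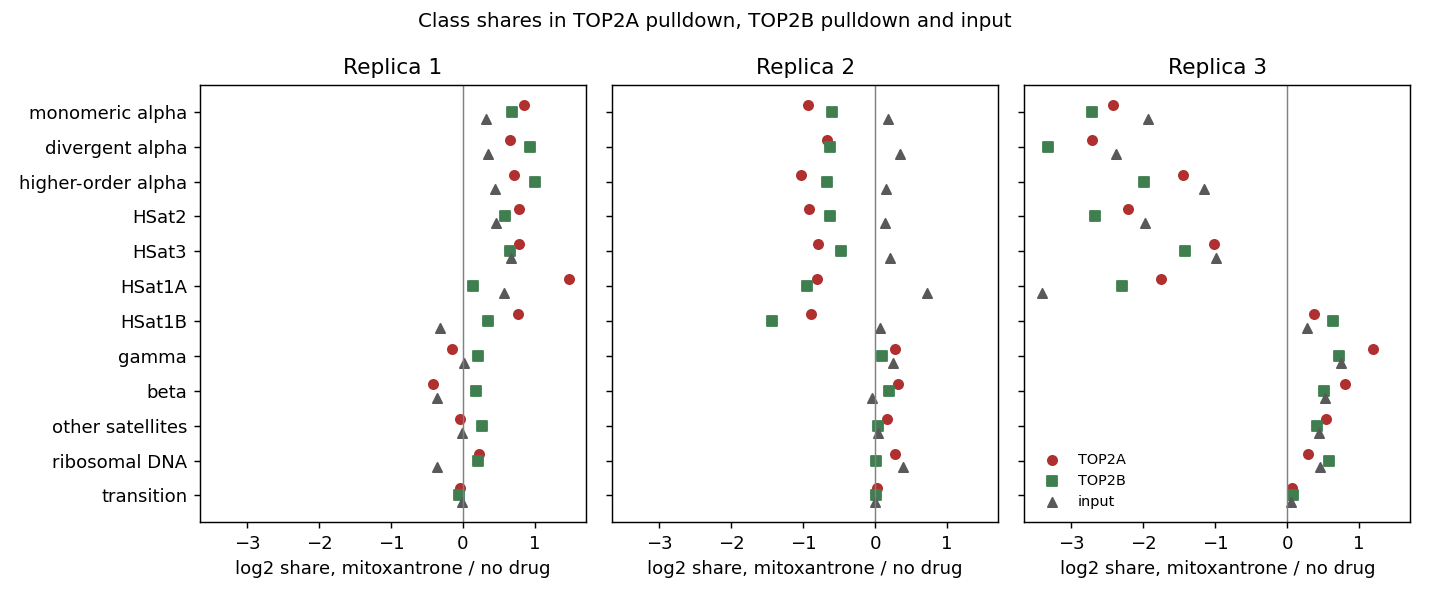
Log2 ratio of the share of region reads, mitoxantrone over no drug (horizontal axis), of each class summed over all its regions, in TOP2A pulldown (circles), TOP2B pulldown (squares) and input (triangles), with 1 panel per replica. The 3 kinds lie on the same side of 0 for every class in replica 3, and in replica 2 both pulldowns lie to the left of input for alpha satellite, HSat2 and HSat3.

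For the alpha satellites and the human satellites, replicas differed in how far input followed. Monomeric alpha satellite gave 0.85, -0.93 and -2.43 in TOP2A, 0.69, -0.59 and -2.71 in TOP2B and 0.31, 0.17 and -1.93 in input. In replica 2 it was lower in both pulldowns and higher in input. The same held for higher-order and divergent alpha satellite and for HSat1A, HSat1B, HSat2 and HSat3. Higher-order alpha satellite of replica 2 gave -1.03 in TOP2A, -0.67 in TOP2B and 0.16 in input. Over replicas, TOP2A minus input was -0.35 ± 0.83 for monomeric and -0.40 ± 0.74 for higher-order alpha satellite (SD, n = 3 each), both with mixed signs. TOP2A minus TOP2B was 0.040 ± 0.33 and -0.035 ± 0.50. For HSat1A, which had few reads, TOP2A minus TOP2B was above 0 in all 3 replicas, at 1.33, 0.14 and 0.54. The exact two-sided permutation of signs gave p = 0.25 there, the smallest that 3 pairs allow. TOP2A minus input had mixed signs for HSat1A, at 0.90, -1.52 and 1.66. Gamma satellite gave -0.15, 0.28 and 1.19 in TOP2A, 0.21, 0.097 and 0.72 in TOP2B and 0.021, 0.25 and 0.75 in input.

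Some of the regions that moved one way in all 3 replicas did so in the other kinds of library too. Of the 42 higher in TOP2A, 12 (28.6%) were also higher in all 3 replicas of TOP2B, which is 21.8% of the 55 of TOP2B, and 11 (26.2%) in all 3 of input, which is 24.4% of its 45. Of the 33 lower in TOP2A, 7 (21.2%) were also lower in TOP2B, which is 12.5% of its 56, and 6 (18.2%) in input, which is 13.3% of its 45. Of all 558 regions, 9.86% were higher and 10.0% lower in all 3 replicas of TOP2B, and 8.06% were higher and 8.06% lower in all 3 of input. The shares among the TOP2A regions were thus above these, and the overlap itself was not tested. In replica 3 TOP2A shared 91.0% of signs with TOP2B and 91.6% with input. The kinds are therefore not independent, and the shares of all regions are no measure of the overlap to be expected. Among the 16 regions named for moving one way, the HSat5 region censat_8_2 was higher in all 3 replicas of every kind, with 0.53, 0.51 and 0.74 in TOP2B and 0.0070, 0.33 and 0.65 in input. The ACRO region censat_4_6 gave -0.065, -0.47 and 0.71 in TOP2B and 0.53, -0.20 and 0.38 in input, and its edgeR interaction was 0.56 ± 0.50 (SE) against input. In ct_20_21 the ratios were 0.14, -0.13 and -0.46 in TOP2B and -0.092, -0.23 and -0.51 in input, lower in all 3 of input as well.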

How the data were processed

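The values were the deposited read counts of named regions, with no normalisation applied. The submitters' processing notes name Trimmomatic 0.36, BWA 0.7.17, HTSeq (version string 2.7.13) and the T2T-CHM13 genome; the authors deposited 1 count per region and library beside 5 tallies of unassigned reads, which were left out of library sizes. Of all reads in the 6 libraries, 37.0% to 73.4% lay in no named region and 21.1% to 59.7% had low mapping quality, so shares describe only the reads that could be placed. The minimum mapping quality was not stated.

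The quasi-likelihood test of edgeR 4.0.16 (R 4.3.3) was applied to the counts, with TMM factors, filterByExpr at a minimum count of 10, replica as a block and a threshold of 0.05 on adjusted p. Shares were compared as log2 ratios of reads plus 0.5 within a replica (pandas 2.3.3, scipy 1.17.1), with exact sign permutation. Counting intervals are 95% Clopper-Pearson and cover counting error only. The fits were tested on simulated data with less scatter than these counts, which does not show how large a change could be missed here. Alternatives were DESeq2 1.42.0, limma 3.58.1, other scaling, filter, denominators and added reads, no block, all 18 libraries of the experiment, and each replica left out.

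Pairing comes from the shared replica label. After removal of group means, same-numbered libraries correlated at 0.39, 0.45 and 0.33 across regions, each highest with its own number. The labels do not state separate cultures, so the spread behind the p-values is that between samples and may be technical. Within each group, every pair of libraries differed beyond sampling noise. Named regions are the 8 highest and 8 lowest means among regions moving one way in all replicas, the 2 most read per class, ribosomal arrays, live arrays with a mean of 50 reads, and the extreme chromosomes per class; chromosome Y was counted but not named. The libraries and lists were chosen with earlier results of these data known.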

Additional observations from a re-analysis of the deposited data

Results flagged for a closer look

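The transition region ct_13_31 on chromosome 13 was the only one of the named regions, classes and chromosome sums that was higher with mitoxantrone in every TOP2A replica and lower in every replica of another kind of library. Its log2 ratios were 0.48, 1.99 and 0.13 in replicas 1, 2 and 3 of TOP2A pulldown, against -0.13, -0.72 and -0.078 in TOP2B pulldown, a difference of 1.17 between the means. In replica 2 it had 6 reads in TOP2A pulldown with mitoxantrone and 0 with no drug, so the largest of these values rests on the reads added to 0. With 5 reads added in place of 0.5, the TOP2A ratios were 0.37, -0.58 and 0.13 with a mean of -0.025, and the region was no longer higher in every replica. The counting intervals of the TOP2A ratios included no change in every replica, at -0.38 to 1.40 in replica 1 and -0.23 to 0.49 in replica 3. In input the region was also higher with mitoxantrone in all 3 replicas, with log2 ratios of 0.0998, 0.257 and 0.315. The edgeR interaction for TOP2A minus TOP2B gave a log2 difference of 0.81 ± 0.76 (SE) with an adjusted p of 1.00. The opposite signs themselves were not tested beyond that fit.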

How the results depend on the processing

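No region or chromosome sum was called under any alternative run, in the drug test or in the tests of TOP2A minus input and minus TOP2B. Unadjusted p-values under 0.05 in the region fit numbered 2, and across alternatives from 0 without replica 3 to 180 without replica 1; with no replicate block the value was 0 calls, with 1 such p-value of 1126 regions, and the block changed no other call. For the chromosome sums, leaving out replica 1 gave 48 of 178 under 0.05 unadjusted, against 0 of 182. Regions higher in all replicas numbered 42, and 23 after TMM scaling, where 29 were lower in place of 33. Over the remaining pair of replicas, 155, 87 and 109 were higher and 210, 68 and 79 lower without replica 1, 2 and 3. Of the 57 named regions, the mean turned sign in 13 without replica 3, 4 without replica 1, 1 without replica 2, 11 without pairing, 5 with 5 reads added and 1 with TMM.

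With each replica left out in turn, class means of the drug log2 ratio crossed 0 for beta satellite (-0.048 to 0.56), transition regions (-0.0036 to 0.045), HSat1A (-1.28 to 0.33) and HSat1B (-0.26 to 0.57). TOP2A minus TOP2B crossed 0 for beta satellite (-0.23 to 0.21), other satellites (-0.094 to 0.13), divergent alpha (-0.16 to 0.28), gamma (-0.088 to 0.33), higher-order alpha (-0.32 to 0.12), HSat2 (-0.041 to 0.33), HSat3 (-0.098 to 0.26), monomeric alpha (-0.082 to 0.23) and ribosomal DNA (-0.14 to 0.14). TOP2A minus input crossed 0 for transition regions (-0.0097 to 0.019), gamma (-0.071 to 0.24), HSat1A (-0.31 to 1.28), HSat1B (-0.43 to 0.59), HSat2 (-0.65 to 0.043), HSat3 (-0.51 to 0.046), monomeric alpha (-0.80 to 0.021) and ribosomal DNA (-0.14 to 0.24). As a share of region and no-feature reads, TOP2A minus TOP2B turned above 0 for other satellites (0.0026) and ribosomal DNA (0.016), and as a share of region reads outside transition regions for beta satellite (0.012), other satellites (0.052), higher-order alpha (0.035) and ribosomal DNA (0.065). The causes were not tested. With 43988 region reads, the no-drug library of replica 2 limits its ratios.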

Other observations

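Families of smaller satellites differed from the class they were counted in. CER satellites gave log2 ratios of 0.25, -0.46 and 0.69 in replicas 1, 2 and 3, mitoxantrone over no drug, and all 6 CER regions with at least 50 reads were lower in replica 2 while 5 were higher in replica 3. The SATR repeats gave -0.56, 0.31 and -0.62, the only such family lower in replica 3. The de novo named families, 261 regions with few reads each, gave -0.19, 0.42 and 0.16. None of these was tested as a family.

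Of the HSat3 subfamilies named alone, A2 (4 regions) gave 0.78, -2.04 and -1.90 in replicas 1, 2 and 3, and A1 (8 regions) gave 0.95, -1.21 and -1.30. Subfamily A4 (65 regions) was the only one of these 3 with a ratio above 0 in replica 3 of TOP2A pulldown. In the same replica it was below 0 in TOP2B pulldown, at -0.53, and in input, at -0.24.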
